A study of Mus musculus with 10 samples.

Results

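Microglia are the resident macrophages of the brain, and the proliferating cells among *in vitro* cultured microglia are described here. They were chosen as the cells of the 2 *in vitro* libraries that held at least 5 UMIs (unique molecular identifiers, each counting 1 captured transcript) summed over 6 genes of dividing cells: *Mki67*, *Top2a*, *Cenpf*, *Hmmr*, *Prc1* and *Nusap1*. Only cells with at most 30000 UMIs, at least 400 genes and at most 5% of UMIs from mitochondrial genes entered. The rule found 428 cells among 5099 kept *in vitro* cells, and 19059 cells were kept over all 10 libraries. Replicate 1 held 148 of them and replicate 2 held 280. They were compared with the 3977 cells of the same libraries (1966 and 2011) that held 0 UMIs of the 6 genes, while 694 cells with 1 to 4 UMIs belonged to neither class.

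The series compared *in vitro* microglia with microglia of adult brain and of cultured brain slices, with 2 libraries in each of 5 groups of strain C57BL/6, sorted as live, CD11b high and CD45 intermediate cells and sequenced with the 10x Genomics 3′ kit. No altered allele was named for any group and the labels name no treatment, but by the study's methods the slice medium, which held horse serum, was given human PDGF, a growth factor, at each change. *In vitro* cells came from mixed glial cultures of the cortices of pups at post-natal day 2, from which the meninges were removed, and were grown in astrocyte medium with horse serum and fetal bovine serum for 3 weeks. They were collected from the culture medium, so microglia that stayed attached were not sampled. Slice microglia came from slices of neonatal brain kept on membrane inserts for 1 day, 1 week or 3 weeks, and adult microglia were taken directly from brain tissue. The study calls the samples of a group independent, but whether they came from separate cultures is not given in the sources used here, so p-values measure only the spread between these libraries, which may be technical.

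A dividing cell copies its DNA in S phase, for which it makes the replication fork proteins, the enzymes of nucleotide synthesis and the histones, and then builds a spindle, attaches its chromosomes through kinetochores and divides in mitosis. Cyclins and their kinases drive the steps, D-type cyclins act in G1, and the CDK inhibitors hold the cycle back. Microglia renew themselves by division in the brain, at a low rate in the healthy adult, and they divide readily in mixed glial cultures, where astrocytes supply growth factors.

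Each of the 6 genes contributed to the choice in both replicates, and none dominated it. *Mki67*, the proliferation marker Ki-67 that coats mitotic chromosomes, had a UMI in 90.5% and 91.8% of the proliferating cells of replicates 1 and 2. *Hmmr*, a spindle assembly factor, was found in 91.2% and 88.9% of them. *Cenpf*, a kinetochore protein, was found in 90.5% and 86.1%. *Top2a*, the topoisomerase that untangles chromosomes, had a UMI in 68.9% and 74.3%. *Nusap1*, a spindle protein, and *Prc1*, which bundles the central spindle, were found in the fewest cells, at 62.2% and 72.5% for *Nusap1* and at 58.8% and 67.1% for *Prc1*. The share of the summed UMIs that came from a single gene ran from 12.3% to 20.9%. All 6 genes were detected in 56 cells of replicate 1 (37.8%) and 116 cells of replicate 2 (41.4%), and no cell was chosen on a single gene. Leaving out any gene and asking again for 5 UMIs kept 121 to 146 of the 148 cells and 245 to 274 of the 280. The median sum was 13.5 UMIs in replicate 1 and 15.5 in replicate 2, with the highest cells at 81 and 69. Just inside the threshold were 9 and 23 cells with a sum of 5, and just outside it 11 and 27 cells with a sum of 4. The combined kinetochore, cyclin and spindle genes described below stood at 5418 and 4773 CPM (UMIs scaled to a fixed library total) in the cells at 5 and at 3799 and 4281 CPM in the cells at 4, so the threshold did not fall in a gap.

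Proliferating cells made up 6.12% of *in vitro* cells in replicate 1 (95% exact binomial interval 5.20% to 7.15%) and 10.4% in replicate 2 (9.31% to 11.7%), a mean of 8.28% ± 3.05 (SD, n = 2). The intervals of the 2 replicates do not overlap, and like all such intervals here they cover counting error only. In slices at 3 weeks 8.07% and 4.63% of cells met the rule, in slices at 1 day 3.86% and 8.48%, and in slices at 1 week 2.03% and 3.28%, the last from 5 cells in all. In adult microglia 0.237% and 0.170% of cells did. The *in vitro* range thus lay over those of slices at 3 weeks and 1 day, and above adult in both replicates. With 2 libraries a group, no test of these shares was made. A single UMI of any of the 6 genes was found in 18.7% and 25.02% of *in vitro* cells, with medians of 12858 and 13966 UMIs a cell, against 1.24% and 0.766% of adult cells, with medians of 3257 and 1858.

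A threshold in UMIs is easier to pass in deeper cells, and *in vitro* cells were the deepest of the series. When each cell was thinned to 5000 UMIs, 2.85% (2.22% to 3.60%) and 4.59% (3.82% to 5.45%) of *in vitro* cells kept 5 or more UMIs of the 6 genes, with 29 and 23 shallower cells left out. In slices at 3 weeks the thinned shares were 8.30% (6.44% to 10.5%) and 4.72% (3.83% to 5.74%), with 394 and 1726 cells left out. After thinning the *in vitro* mean of 3.72% was below both slice values, while the unthinned mean of 8.28% was above both. The intervals of *in vitro* replicate 2 and slice 3 weeks replicate 2 overlap at that depth. Thinning also changed which cells were counted: among the cells deep enough to be thinned, the shares before thinning were 6.16% and 10.5% *in vitro* and 10.4% and 5.76% in slices at 3 weeks. In slices at 1 day 0.896% and 3.67% of thinned cells met the rule. For adult only 185 and 26 cells were deep enough to thin, of which 5 and 2 met it, so the thinned adult shares describe the few deepest cells (3614 and 3501 were left out). None of the 98 and 36 cells of slices at 1 week did, which allows shares of up to 3.06% and 8.33% by a limit of 3 counts (95% exact upper bounds 3.69% and 9.74%).

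**Figure D1:**
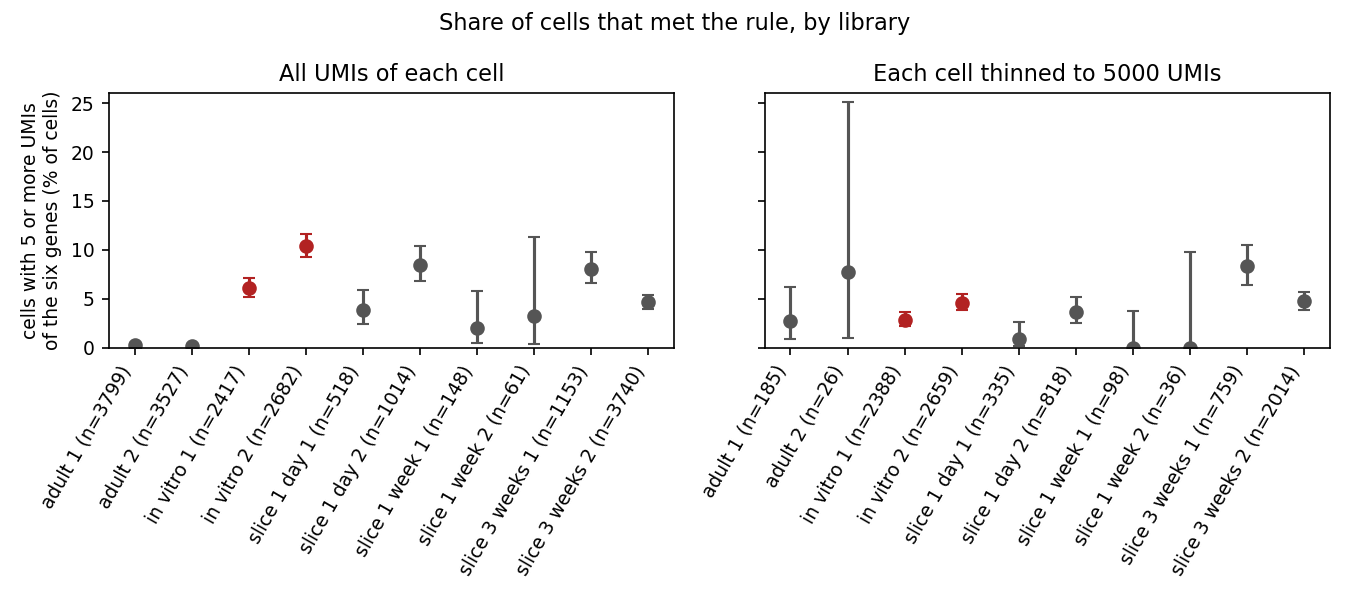
Share of cells with 5 or more UMIs of the 6 genes (percent of cells, y axis) in each library (x axis, with its number of cells), with 95% exact binomial intervals as bars, from all UMIs (left) and after thinning each cell to 5000 UMIs (right). *In vitro* libraries, in red, sit at 6.12% and 10.4% on the left and at 2.85% and 4.59% on the right, where both slice 3 weeks libraries, at 8.30% and 4.72%, sit higher.

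Proliferating cells held more UMIs than the other cells of the cultures. Their median was 20614 UMIs in replicate 1 and 20670.5 in replicate 2, against 12253 and 13177 in cells with 0 UMIs of the 6 genes, which is 1.68 and 1.57 times as many. Cells with 1 to 4 UMIs lay between, at 14903 and 15595. Genes detected per cell went from a median of 2989 and 3050 to 4179.5 and 4196, while the mitochondrial share stayed close, at 2.23% and 2.28% in proliferating cells and 2.24% and 2.47% in cells with 0. In slices at 3 weeks the same ratio of medians was smaller, at 1.23 and 1.33, and in slices at 1 day it was 1.62 and 1.72. The upper limit of 30000 UMIs fell on the proliferating cells more than on the others: of the 81 and 74 *in vitro* cells above it, 33 (40.7%) and 43 (58.1%) met the rule, and without the limit 181 and 323 cells would have. No doublet caller was run, so droplets with more than 1 cell were removed only as far as that limit removes them.

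**Figure D2:**
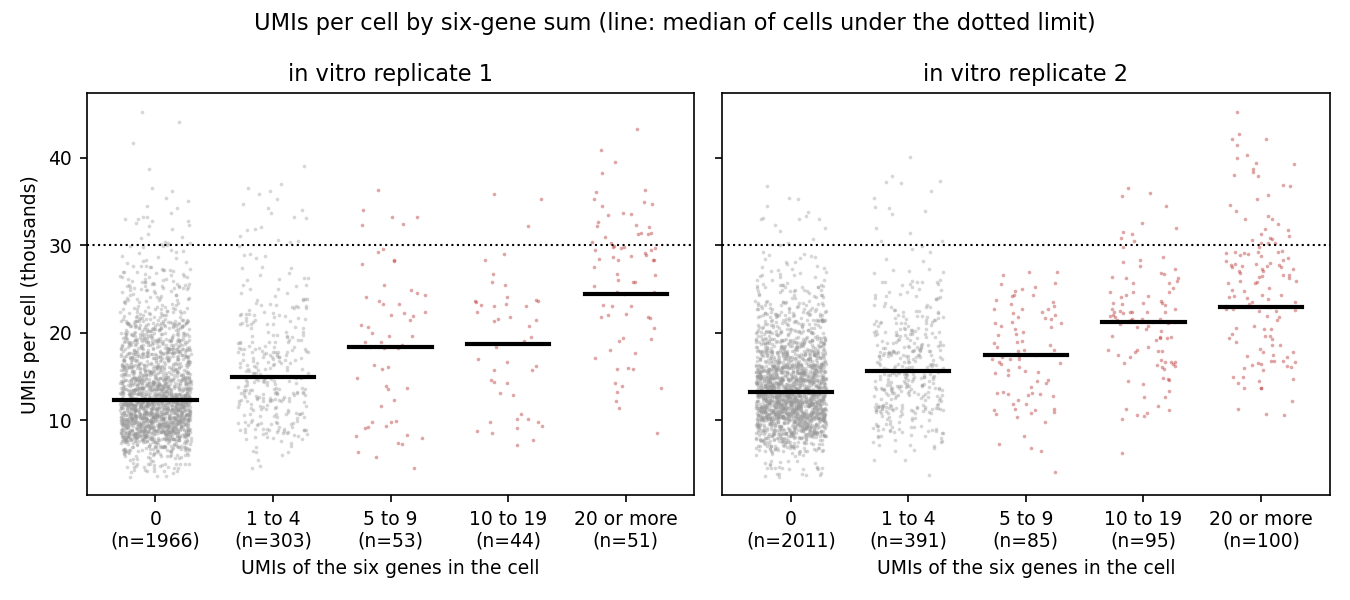
UMIs per cell (y axis) by the sum of UMIs of the 6 genes in the cell (x axis, with the number of kept cells), for *in vitro* replicate 1 (left) and 2 (right). Each point is a cell, proliferating cells are red, black lines are medians of kept cells and the dotted line is the limit of 30000 UMIs; the medians climb from 12253 and 13177 UMIs at a sum of 0, and many cells with 20 or more UMIs of the 6 genes lie above the limit.

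The cells carried the markers of macrophages. All 24 genes of a list of markers shared by microglia and other macrophages were detected in the proliferating cells of both replicates, with *Lyz2*, the macrophage lysozyme, the highest of them in CPM, and the list summed to 68340 and 62955 CPM, against 95287 and 95124 CPM in the cells with 0 UMIs. Of 24 genes typical of homeostatic microglia, 23 and 21 were detected, at a sum of 6754 and 5914 CPM. *Siglech* had no UMI in replicate 1, and *Sparc*, *Sall1* and *Slc2a5* had none in replicate 2. The *in vitro* cells with 0 UMIs of the 6 genes were near the same low sum, at 8578 and 7595 CPM. Adult cells with 0 UMIs held 132914 and 124547 CPM of the list, so the homeostatic markers were low in both classes of *in vitro* cells. Markers of monocytes and border macrophages summed to 3168 and 3312 CPM against 4757 and 4669 CPM, most of it from *Pf4* and *Ms4a7*. Of the 12 genes, 6 and 7 were detected in the proliferating cells, and 9 in the cells with 0 of each replicate. *Ly6c2* and *Plac8*, which mark monocytes, were at 0 in both classes, while *Ccr2*, of the same list, was detected in both.

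Markers of the other cell types of a mixed glial culture were low. Astrocyte markers summed to 5.58 and 9.62 CPM against 5.08 and 5.75 CPM in the cells with 0, with *Aqp4* and *Slc1a2* at 0 in both. The highest of them in proliferating cells was *Gja1*, a gap junction gene of astrocytes, which rose from 0.8 and 0.75 CPM to 4.11 and 5.15 CPM on few UMIs, with an adjusted p of 0.070 without replicate 2. Markers of oligodendrocytes and their precursors summed to 63.5 and 61.1 CPM against 80.5 and 69.3 CPM, mostly from *Cnp*, with *Olig2*, *Sox10* and *Pdgfra* at 0 in all 4. Neuron markers were at 0.349 and 0.890 CPM against 0.721 and 0.395 CPM, and endothelial markers at 6.98 and 3.74 CPM against 5.31 and 5.39 CPM. Only 6 of 11 fibroblast and mural, 8 of 10 endothelial and 9 of 12 lymphocyte markers were in the files, so the others could not be measured. Among the fibroblast and mural markers, *Col1a1* and *Col1a2* were at 0 in the proliferating cells of both replicates. Summed, these markers were low but higher in the proliferating cells, at 3.49 and 6.41 CPM against 0.607 and 1.22 CPM. One of them, *Cspg4*, which also marks oligodendrocyte precursors, rose (2.98 ± 0.42, adjusted p = 3.6e-07), at 1.37 and 5.50 CPM against 0.126 and 0.708 CPM, from 4 and 31 UMIs against 3 and 17. The part of these cell types in the results was not tested. Neutrophil markers were at 1.40 and 2.14 CPM against 1.56 and 2.34 CPM, and lymphocyte markers at 9.42 and 4.81 CPM against 11.6 and 10.4 CPM. Of the *in vitro* barcodes, 11 were found in both libraries, none of them a proliferating cell of both.

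The main comparison set proliferating cells against cells with 0 UMIs of the 6 genes within each library. UMIs were summed over the cells of a class in a library, so n = 2 libraries *in vitro*, and tested with edgeR's quasi-likelihood test with the library as a block. The 6 genes themselves were left out. Changes are given as log2 fold changes ± SE, gene levels as CPM scaled by the TMM factors of the fit (trimmed mean of M values, which set the typical gene equal between classes), and adjusted p (Benjamini-Hochberg) cover the 11212 genes that were tested. A gene is said to have risen or fallen at an adjusted p under 0.05 and a change of over 1.5-fold, and to have passed only if it met both. In proliferating cells 1289 genes rose, which is 11.5% of all genes tested, and 1132 fell, which is 10.1%. Without replicate 2, the one with more proliferating cells, 703 rose and 692 fell. Scaled to the plain sum of UMIs, 1987 rose and 614 fell, with the median of all genes at 0.17 rather than −0.02. With no scaling for depth the median of all genes was at 0.71, and 6132 genes rose and 139 fell per cell, the proliferating cells holding more UMIs in all. The changes below are therefore relative to the typical gene of a cell. Since the 6 genes are mitotic genes, the counts of mitotic genes below describe the cells that the rule picked.

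**Figure D3:**
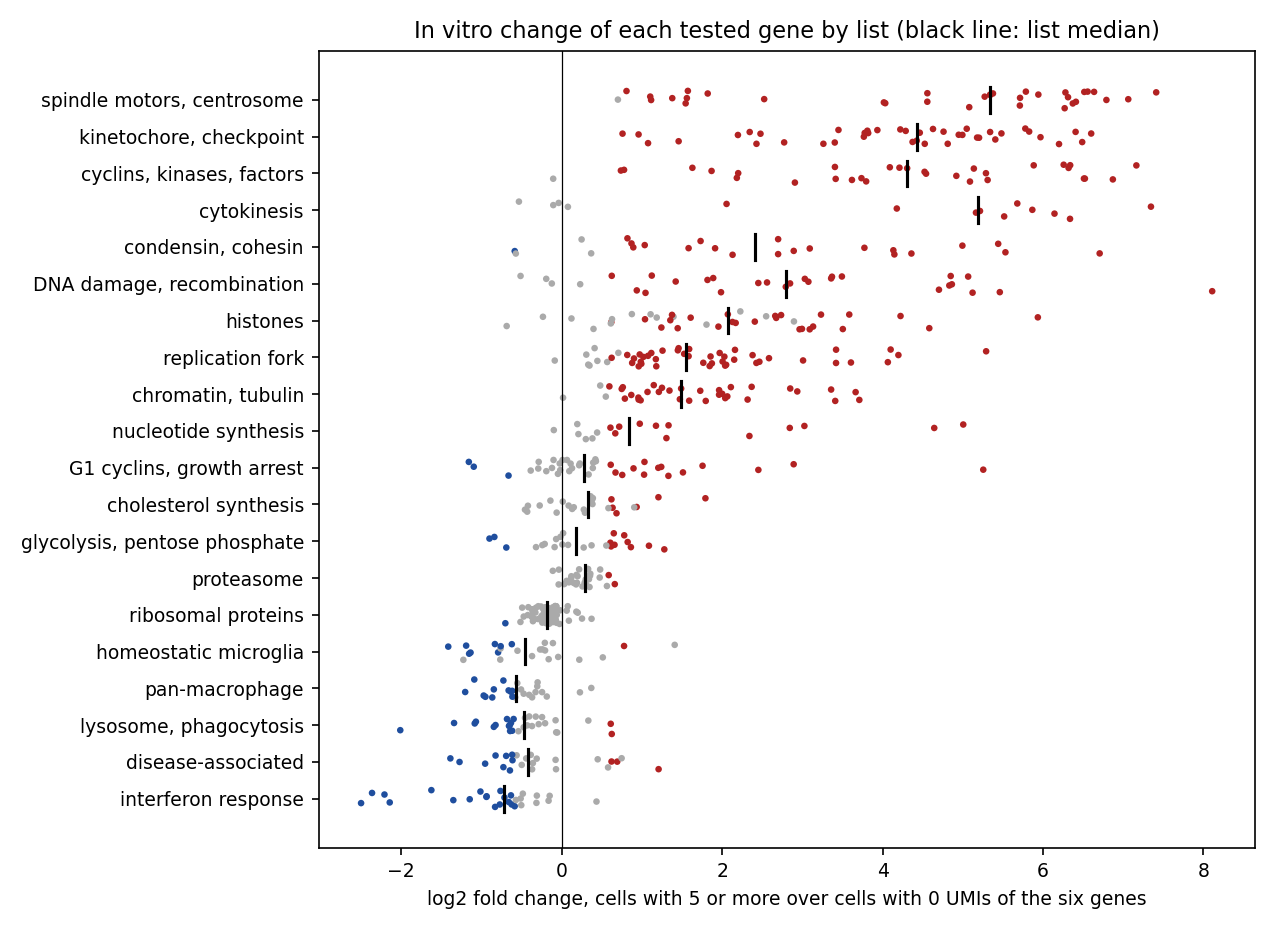
Log2 fold change of proliferating cells over cells with 0 UMIs of the 6 genes *in vitro* (x axis) for each tested gene of 20 lists (rows). Points are genes, red for those that rose, blue for those that fell and grey for the others, and black lines are list medians; the medians of the mitotic lists lie at 4.31 to 5.34 and that of the interferon list at −0.71.

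Almost all genes of mitosis rose together. Of 41 genes of the kinetochore and the spindle checkpoint, 41 rose (median change 4.43), of 34 spindle motors and centrosome genes 33 rose (5.34), of 31 cyclins, kinases and other cell cycle factors 30 rose (4.31), and of 14 cytokinesis genes 10 rose (5.19), beside a median of −0.02 over all genes. *Plk1*, the polo-like kinase that drives entry into mitosis, was at 149.8 and 179 CPM in the proliferating cells and at 1.18 and 2.37 CPM in the cells with 0 UMIs (6.52 ± 0.16, adjusted p = 1.1e-27). The level of *Ccnb1*, cyclin B1, the partner of CDK1 in mitosis, was 246 and 269 CPM against 2.40 and 4.04 CPM (6.32 ± 0.16). For *Ccna2*, cyclin A2, which acts in S phase and G2, the proliferating cells held 208 and 200.1 CPM and the cells with 0 held 1.52 and 2.92 CPM, a log2 change of 6.51 ± 0.18. The classes were far apart in both replicates for these genes. *Cdc20*, which turns on the anaphase-promoting complex, was at 335 and 334 CPM in the proliferating cells and at 3.58 and 4.75 CPM in the cells with 0 UMIs (6.32 ± 0.15, adjusted p = 4.4e-28). The level of *Ube2c*, the ubiquitin-conjugating enzyme of that complex, was 414 and 480.4 CPM against 7.07 and 10.9 CPM (5.65 ± 0.16). For *Cenpe*, a kinetochore motor, the proliferating cells held 177 and 162 CPM and the cells with 0 held 2.31 and 3.04 CPM, a log2 change of 5.97 ± 0.14. All 3 were again many times higher in both replicates. *Tpx2*, a spindle assembly factor, was at 162 and 169 CPM in the proliferating cells and at 2.15 and 3.21 CPM in the cells with 0 UMIs (5.94 ± 0.14, adjusted p = 3.8e-28). The level of *Pbk*, a mitotic kinase, was 117 and 104 CPM against 0.968 and 1.71 CPM (6.34 ± 0.21). For *Kif23*, a motor of the central spindle, the proliferating cells held 113 and 90.7 CPM and the cells with 0 held 0.842 and 0.958 CPM, a log2 change of 6.79 ± 0.19. *Nek2*, *Sgol1* (shugoshin 1, which guards sister chromatid cohesion) and *Casc5* (the kinetochore scaffold Knl1) rose by 6.87 ± 0.22, 6.60 ± 0.24 and 6.49 ± 0.23 on the log2 scale.

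Not every gene of these machines was raised. Of 15 genes of the anaphase-promoting complex 8 rose, with a median of 0.63, and the constant subunits *Cdc26* (0.04 ± 0.10) and *Anapc13* (−0.33 ± 0.10) did not pass. *Cdc42* (−0.04 ± 0.10) and *Rhoa* (0.08 ± 0.10), which serve the cytoskeleton in all cells, were the most abundant cytokinesis genes and did not pass either. Of 24 genes of condensin, cohesin and chromosome passage 20 rose and 1 fell (median 2.41). *Pttg1*, securin, which holds separase in check, did not pass at 0.25 ± 0.11, with 75.4 and 77.6 CPM in the proliferating cells and 62.7 and 66.0 CPM in the cells with 0.

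Genes of S phase also rose, by less. Of 50 genes of replication licensing and the fork 42 rose and none fell (median 1.55), of 18 genes of nucleotide synthesis 12 rose (0.85), and of 29 genes of DNA damage and recombination 25 rose (2.79). *2810417H13Rik*, the PCNA clamp-associated factor Pclaf, was at 315 and 282 CPM in the proliferating cells and at 7.03 and 8.12 CPM in the cells with 0 UMIs (5.29 ± 0.18, adjusted p = 4.3e-24). The level of *Clspn*, claspin, which signals stalled forks, was 15.1 and 15.3 CPM against 0.421 and 1.17 CPM (4.20 ± 0.32). For *Asf1b*, a chaperone that brings histones to new DNA, the proliferating cells held 129.6 and 118 CPM and the cells with 0 held 7.66 and 6.75 CPM, a log2 change of 4.10 ± 0.12. Each was higher in proliferating cells in both replicates. *Rrm2*, the regulated subunit of ribonucleotide reductase, was at 62.7 and 62.7 CPM in the proliferating cells and at 1.60 and 2.25 CPM in the cells with 0 UMIs (5.01 ± 0.16, adjusted p = 2.2e-24). The level of *Tk1*, thymidine kinase, was 136 and 122 CPM against 4.29 and 5.92 CPM (4.64 ± 0.18). For *Tyms*, thymidylate synthase, the proliferating cells held 90.1 and 82.4 CPM and the cells with 0 held 10.4 and 10.7 CPM, a log2 change of 3.03 ± 0.12. The 4 values of each did not overlap between classes. *Slbp*, which binds histone mRNA, was at 72.7 and 65.3 CPM in the proliferating cells and at 58.8 and 52.7 CPM in the cells with 0 UMIs (0.31 ± 0.12, adjusted p = 0.037). The change of *Slbp* stayed under 1.5-fold.

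Of the replication-dependent histone genes, 39 of 65 were tested and 25 of these rose (median 2.07). Their mRNAs mostly lack the poly(A) tail that the kit captures, and near-identical copies of these genes share reads, so the count per gene is uncertain. Without replicate 1 only 15 rose, and without replicate 2 only 11. The level of *Hist1h1b*, histone H1.5, was 23.99 and 21.7 CPM against 0.337 and 0.375 CPM (5.94 ± 0.28). For *Hist1h2ap*, an H2A gene, the proliferating cells held 131 and 94.97 CPM and the cells with 0 held 4.33 and 4.92 CPM, a log2 change of 4.58 ± 0.16. Of 35 genes of chromatin and tubulin, whose mRNAs have poly(A) tails, 32 rose (median 1.49). *Hmgb2*, a DNA-bending chromatin protein, was at 707 and 480.4 CPM in the proliferating cells and at 57.4 and 52.2 CPM in the cells with 0 UMIs (3.41 ± 0.11, adjusted p = 4.2e-24). The level of *H2afx*, histone H2A.X, was 243 and 194 CPM against 16.8 and 17.3 CPM (3.66 ± 0.11). For *Tubb4b*, a beta-tubulin of the spindle, the proliferating cells held 559 and 575 CPM and the cells with 0 held 53.9 and 56.5 CPM, a log2 change of 3.36 ± 0.11. The variant histone *H3f3a*, made throughout the cycle, was level at 0.02 ± 0.11.

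The cells were then sorted by the sum of the 6 genes. Here list levels are plain CPM of the summed counts. Kinetochore genes went from 358 and 360 CPM at a sum of 0 to 626 and 772 CPM at 1 to 4, 2649 and 2656 CPM at 5 to 9 and 4623 and 4364 CPM at 20 or more. Cyclins and kinases went from 144 and 152 CPM over 371 and 440 CPM to 1777 and 1743 CPM, and to 3537 and 3342 CPM at 20 or more. Mitotic lists thus stepped up most between the bins of 1 to 4 and 5 to 9 UMIs in both replicates. Most cells of the bin of 1 to 4 had a sum of 1 (225 of 303 and 283 of 391). Those at a sum of 4 already held 3799 and 4281 CPM of the combined mitotic lists, so the step reflects the make-up of the bins. Replication genes climbed more evenly, from 612 and 576 CPM at 0 to 1342 and 1444 CPM at 5 to 9 and 2547 and 2215 CPM at 20 or more. Histone genes did not follow a common course: in replicate 1 they went from 717 CPM at 5 to 9 to 889 CPM at 20 or more, and in replicate 2 from 836 to 577 CPM. In the kinetochore, cyclin and replication lists the cells with 1 to 4 UMIs were closer to those with 0 than to those with 5 to 9. Since the bins were cut on mitotic genes and deeper cells reach higher sums, these levels are a description.

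Cell by cell, the mitotic genes and the replication genes were raised to different degrees. At 5000 UMIs a cell, the 106 genes of the kinetochore, cyclin and spindle lists held a median of 41 UMIs in the proliferating cells of each replicate and of 3 UMIs in the cells with 0. The 51 replication genes held a median of 7 UMIs in each replicate, with cells between the 10th and 90th percentile from 2 to 17.4 and from 3 to 21.2, against 2.5 and 2 UMIs in the cells with 0. At least 5 replication UMIs were found in 72.1% and 77.1% of proliferating cells and in 17.5% and 16.8% of the cells with 0. Across proliferating cells the 2 sums were nearly unrelated (Spearman correlation 0.15 over 147 cells and 0.03 over 279 cells). This is a description over cells that share a library. All of them were chosen on mitotic genes and held at least 5 mitotic UMIs, so the values hold only within that choice. The correlation was 0.29 and 0.33 in cells with 1 to 4 UMIs of the 6 genes, and 0.081 and 0.12 in cells with 0. In slices at 3 weeks the replication median was higher, at 17 UMIs in 79 cells and 12 UMIs in 116 cells. The mitotic medians there were 48 and 47.5 UMIs. Cells were chosen by their sums before thinning, when slice cells were shallower, so the rule was not equally strict in slices and *in vitro*.

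**Figure D4:**
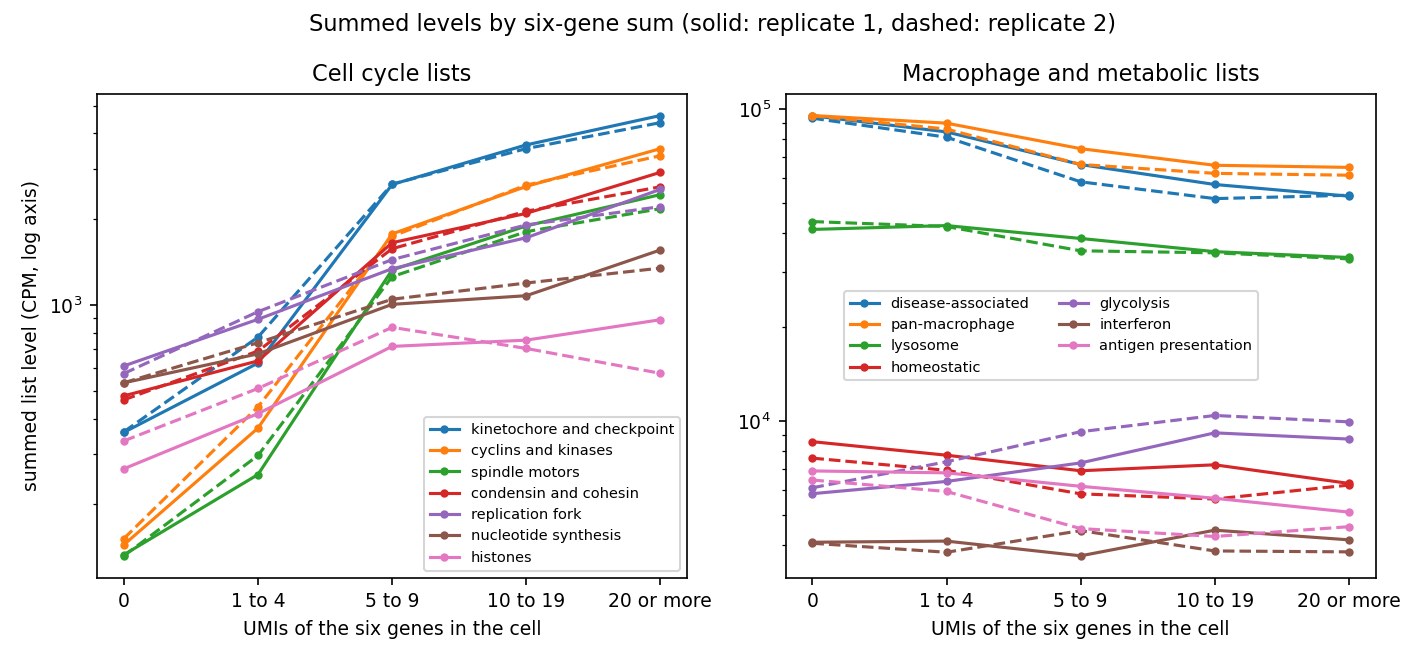
Summed level of each list in CPM (y axis, log scale) by the sum of UMIs of the 6 genes in the cell (x axis), with cell cycle lists on the left and macrophage and metabolic lists on the right. Solid lines are *in vitro* replicate 1 and dashed lines replicate 2; kinetochore genes go from 358 and 360 CPM to 4623 and 4364 CPM, while macrophage markers go from 95287 and 95124 CPM to 64977 and 61327 CPM.

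Genes of the cell cycle are known to be timed by short promoter elements: E2F sites for S phase genes, and CCAAT boxes with a CHR (cell cycle genes homology region) for genes of G2 and mitosis. The 2 genes that rose most in the replication, cyclin and kinase, and kinetochore lists and had an entry in the RefSeq promoter table of GRCm38.p6 (a release of the same mouse assembly as mm10) are shown, as members that moved together. Each line gives the 100 bases before the annotated start, 5′ to 3′ on the strand of the gene, with matches in capitals to CCAAT or its reverse complement ATTGG, to TTTGAA or TTCGAA (the CHR), to its variant TTTAAA, or to TTTCGCGC, TTTGGCGC, TTTCCCGC or TTTGCCGC (E2F), on either strand.
2810417H13Rik promoter (Pclaf), chr9:65890223-65890322, plus strand: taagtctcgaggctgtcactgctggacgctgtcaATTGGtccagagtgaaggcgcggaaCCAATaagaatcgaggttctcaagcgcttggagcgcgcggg
Clspn promoter, chr4:126556880-126556979, plus strand: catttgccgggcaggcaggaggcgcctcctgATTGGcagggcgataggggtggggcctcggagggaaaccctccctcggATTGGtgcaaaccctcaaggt
Nek2 promoter, chr1:191821373-191821472, plus strand: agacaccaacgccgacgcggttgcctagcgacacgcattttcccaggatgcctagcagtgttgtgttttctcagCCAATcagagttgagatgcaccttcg
Plk1 promoter, chr7:122159335-122159434, plus strand: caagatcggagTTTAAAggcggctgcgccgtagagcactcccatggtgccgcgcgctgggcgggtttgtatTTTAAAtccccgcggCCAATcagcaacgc
Sgol1 promoter (Sgo1), chr17:53689316-53689415, minus strand: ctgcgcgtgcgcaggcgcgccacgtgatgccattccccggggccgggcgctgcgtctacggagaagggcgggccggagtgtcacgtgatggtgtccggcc
Casc5 promoter (Knl1), chr2:119047019-119047118, plus strand: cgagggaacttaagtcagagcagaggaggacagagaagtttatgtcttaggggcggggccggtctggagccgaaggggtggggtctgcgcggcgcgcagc

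Some matches lay at or just after the annotated start, and these 30-base windows show the match in capitals.
2810417H13Rik start site, E2F, chr9:65890307-65890336, plus strand: gcttggagcgcGCGGGAAAgagacccattt
2810417H13Rik start site, CHR variant, chr9:65890322-65890351, plus strand: gaaagagacccaTTTAAAcggtggcgggaa
Clspn start site, E2F, chr4:126556990-126557019, plus strand: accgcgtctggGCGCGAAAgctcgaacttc
Nek2 start site, CCAAT, chr1:191821468-191821497, plus strand: cttcgctgtggaCCAATagaatgcgaggcc
Plk1 start site, CHR, chr7:122159453-122159482, plus strand: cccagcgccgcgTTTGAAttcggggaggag
Sgol1 start site, CCAAT, chr17:53689296-53689325, minus strand: gtgtccggccagCCAATggatacgcgtaac
Sgol1 start site, CHR, chr17:53689271-53689300, minus strand: gtaacgcagaatTTCGAAtgtggcggcggt
Casc5 start site, CHR, chr2:119047138-119047167, plus strand: agggcggttagaTTTGAAtacttcagggac
*Plk1*, *Sgol1* and *Casc5* each held a CHR, and *2810417H13Rik* and *Clspn* an E2F match, within the window searched, from 250 bases before the start to 50 after it. Of the genes that rose in the kinetochore, cyclin and spindle lists, 84 of 104 had an entry, and 47 of them (56.0%) held a CHR, against 14.3% of the 8926 tested genes with an entry and 19.4% of all 27025 entries. A CCAAT box was held by 61 of them (72.6%), against 39.8% of tested genes and 37.9% of all entries. Of the replication genes that rose, 34 of 42 had an entry, and 12 (35.3%) held an E2F match, against 13.1% of the mitotic genes, 4.47% of tested genes and 2.32% of all entries, while 20.6% held a CHR and 70.6% a CCAAT box. The variant TTTAAA was held by 23.8% of the mitotic and 8.82% of the replication genes, against 8.91% of tested genes and 13.2% of all entries. A match is a match of letters, and binding was not measured.

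Genes that act in G1 and in growth arrest moved in both directions. Of 38 tested, 14 rose and 3 fell (median 0.28), and several inhibitors were among those that rose. *Cdkn3*, a phosphatase of cyclin-dependent kinases that is itself made in mitosis, was at 194 and 183 CPM in the proliferating cells and at 4.12 and 5.67 CPM in the cells with 0 UMIs (5.25 ± 0.14, adjusted p = 4.5e-27). The level of *Cdkn2c*, the CDK4 and CDK6 inhibitor p18, was 165 and 157 CPM against 21.1 and 22.2 CPM (2.89 ± 0.11). For *Cdkn2d*, the inhibitor p19 of the same kinases, the proliferating cells held 85.7 and 96.04 CPM and the cells with 0 held 14.8 and 18.4 CPM, a log2 change of 2.45 ± 0.12. All 3 were higher in both replicates. *Cdkn1a*, the inhibitor p21, was at 179.6 and 204 CPM in the proliferating cells and at 111 and 96.04 CPM in the cells with 0 UMIs (0.90 ± 0.16, adjusted p = 2.1e-05). The level of *Cdkn1b*, the inhibitor p27, was 22.3 and 20.9 CPM against 15.7 and 12.04 CPM (0.67 ± 0.17). For *Cdkn2a*, the Ink4a/Arf locus, the proliferating cells held 28.4 and 30.001 CPM and the cells with 0 held 15.5 and 13.6 CPM, a log2 change of 1.03 ± 0.15. Without replicate 2 the adjusted p of *Cdkn1b* was 0.38 and that of *Cdkn2a* 0.064. Of the other inhibitors, *Cdkn1c* (p57) did not pass (−0.05 ± 0.66, from 2 and 6 UMIs in the proliferating cells), and *Cdkn2b* (p15) rose by 1.03 ± 0.35 on the log2 scale from 18 and 23 UMIs, with an adjusted p of 0.25 without replicate 2.

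*Ccnd1*, cyclin D1, which couples growth signals to the cycle, was at 119 and 172 CPM in the proliferating cells and at 71.1 and 56.7 CPM in the cells with 0 UMIs (1.20 ± 0.13, adjusted p = 1.7e-09). Among cells with 10000 to 20000 UMIs in both classes, where depth differs less, its change was 0.32 (adjusted p = 0.13). The level of *Cdk6*, a kinase that D-type cyclins activate, was 39.8 and 45.98 CPM against 23.5 and 27.3 CPM (0.76 ± 0.13). In the same window its change was −0.19. For *Ccnd2*, cyclin D2, the proliferating cells held 26.4 and 13.5 CPM and the cells with 0 held 45.7 and 19.3 CPM, a log2 change of −0.66 ± 0.15. The 2 classes of *Ccnd2* overlap across replicates, and without replicate 1 its adjusted p was 0.25. *Gadd45a*, a growth arrest gene, was at 12.7 and 15.6 CPM in the proliferating cells and at 23.4 and 38.4 CPM in the cells with 0 UMIs (−1.16 ± 0.18, adjusted p = 3.1e-06). The level of *Mxd4*, a repressor that opposes Myc, was 39.8 and 36.6 CPM against 82.7 and 79.8 CPM (−1.10 ± 0.12). Both fell in each replicate. *Myc* had a change of −0.19 ± 0.26, and *E2f1* was at 26.4 and 30.2 CPM against 31.7 and 30.1 CPM (−0.11 ± 0.13), and neither passed.

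Macrophage genes fell as a share of the UMIs of a cell. Of 24 markers of microglia and macrophages 11 fell and none rose (median −0.57), and of 24 homeostatic microglia genes 8 fell and 1 rose (−0.46). For *Lyz2*, the lysozyme of macrophages, the proliferating cells held 20165 and 18221 CPM and the cells with 0 held 39577 and 42015 CPM, a log2 change of −1.09 ± 0.12. *Fcgr3*, an Fc receptor, was at 579.9 and 512 CPM in the proliferating cells and at 1254 and 1251 CPM in the cells with 0 UMIs (−1.20 ± 0.10, adjusted p = 7.6e-12). The level of *Csf1r*, the receptor for the growth factors CSF1 and IL-34 on which microglia depend, was 576 and 421 CPM against 1058 and 882 CPM (−0.97 ± 0.11). Each was lower in the proliferating cells of both replicates. For *Aif1*, which encodes the microglia marker Iba1, the proliferating cells held 599 and 394 CPM and the cells with 0 held 1065 and 828 CPM, a log2 change of −0.95 ± 0.10. *Gpr34*, a microglial receptor, was at 66.5 and 50.2 CPM in the proliferating cells and at 153 and 153 CPM in the cells with 0 UMIs (−1.41 ± 0.13, adjusted p = 1.5e-11). With no scaling for depth, none of the 24 macrophage markers fell per cell and the list median was 0.16, while 1 homeostatic gene fell and 5 rose, with a median of 0.27. Leaving out the scaling moves all genes up by about the same amount. The genes named here were below 0 per cell, at −0.68 for *Gpr34*, −0.47 for *Fcgr3*, −0.36 for *Lyz2*, −0.24 for *Csf1r* and −0.22 for *Aif1*, and of the 58 genes that fell among those taken by the naming rule, 2 were above 0. Scaled to the plain sum of UMIs, 6 macrophage markers and 6 homeostatic genes fell. Among cells with 10000 to 20000 UMIs, 8 of the macrophage markers fell, but only 3 homeostatic genes did and 2 rose, with a median of −0.07.

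Of 24 genes of disease-associated microglia 9 fell and 3 rose (median −0.41), and of 29 genes of lysosomes and phagocytosis 13 fell and 2 rose (−0.47). The level of *Apoe*, the lipid carrier apolipoprotein E, was 34953 and 25978 CPM against 80504 and 77166 CPM (−1.39 ± 0.10). For *Ccl6*, a chemokine, the proliferating cells held 270.1 and 311 CPM and the cells with 0 held 584 and 835 CPM, a log2 change of −1.27 ± 0.11. *Lpl*, lipoprotein lipase, was at 901 and 1049 CPM in the proliferating cells and at 355 and 499 CPM in the cells with 0 UMIs (1.21 ± 0.11, adjusted p = 2.5e-11). *Apoe* and *Ccl6* were lower and *Lpl* higher in both replicates, but among cells with 10000 to 20000 UMIs the change of *Lpl* was −0.02 (adjusted p = 0.93) and no gene of the list rose. *Spp1*, osteopontin, was at 5513 and 9013 CPM against 3667 and 6079 CPM, a change of 0.58 ± 0.11 that stayed just under 1.5-fold. The level of *Atp6v0d2*, a subunit of the proton pump of lysosomes, was 6.17 and 8.52 CPM against 23.1 and 35.6 CPM (−2.01 ± 0.19). For *Mertk*, a receptor for dying cells, the proliferating cells held 15.8 and 16.2 CPM and the cells with 0 held 45.7 and 37.4 CPM, a log2 change of −1.34 ± 0.15. With no scaling for depth the list medians were 0.32 and 0.26, and 1 and 2 genes fell per cell.

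Among the 8 largest falls of well-detected genes were *Saa3*, *Clec4n*, *Pla2g7*, *Apoc1*, *Slc40a1*, *Tmcc3* and *Pltp*. *Saa3*, serum amyloid A3, an acute phase protein, was at 10.6 and 2.49 CPM in the proliferating cells and at 52.5 and 11.6 CPM in the cells with 0 UMIs (−2.27 ± 0.22, adjusted p = 7.8e-11). The level of *Clec4n*, the lectin receptor dectin-2, was 81.9 and 42.4 CPM against 263 and 206 CPM (−1.99 ± 0.12). For *Slc40a1*, the iron exporter ferroportin, the proliferating cells held 35.99 and 20.6 CPM and the cells with 0 held 101 and 93.4 CPM, a log2 change of −1.86 ± 0.14. For *Saa3* the level in the cells with 0 differed between replicates almost as much as the classes did, while *Clec4n* and *Slc40a1* were well apart. *Pltp*, phospholipid transfer protein, was at 46.3 and 76.9 CPM in the proliferating cells and at 156 and 261 CPM in the cells with 0 UMIs (−1.76 ± 0.11, adjusted p = 5.0e-16). The level of *Apoc1*, an apolipoprotein, was 26.7 and 16.3 CPM against 103 and 59.95 CPM (−1.91 ± 0.13). For *Pla2g7*, a secreted phospholipase, the proliferating cells held 35.3 and 29.5 CPM and the cells with 0 held 131 and 118 CPM, a log2 change of −1.95 ± 0.13.

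Interferon response genes were lower: 18 of 27 fell and none rose (median −0.71), though without replicate 2 only 9 fell. With no scaling for depth 5 fell and 1 rose per cell, with a median of 0.02. *Ifit3*, an interferon-induced antiviral protein, was at 16.1 and 6.75 CPM in the proliferating cells and at 48.8 and 55.6 CPM in the cells with 0 UMIs (−2.36 ± 0.26, adjusted p = 1.8e-09). The level of *Isg15*, a ubiquitin-like protein induced by interferon, was 48.3 and 30.2 CPM against 70.7 and 73.1 CPM (−0.94 ± 0.16). *Ifi27l2a*, the most abundant of them, stayed under 1.5-fold (0.43 ± 0.13), and the summed list was nearly flat over the bins of the 6 genes, from 4082 and 4052 CPM at 0 to 4155 and 3802 CPM at 20 or more. Of 15 genes of antigen presentation 6 fell, and 1 fell among cells with 10000 to 20000 UMIs. For *H2-D1*, an MHC class I chain, the proliferating cells held 1137 and 949 CPM and the cells with 0 held 1821 and 1874 CPM, a log2 change of −0.83 ± 0.11. Of 27 inflammatory cytokines and chemokines 10 fell and 4 rose, but none rose among cells with 10000 to 20000 UMIs. *Il1b* was at 5.83 and 4.97 CPM against 26.1 and 10.04 CPM (−1.56 ± 0.28), and in that window its change was 0.22. Of 24 growth factor receptors and ligands 12 fell and 1 rose (median −0.59).

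Metabolic genes moved less, and fewer of them rose among cells of like depth. Of 24 genes of glycolysis and the pentose phosphate pathway 9 rose and 3 fell (median 0.18), against 2 and 2 among cells with 10000 to 20000 UMIs, where the median was −0.15. *Slc16a3*, the lactate exporter MCT4, was at 68.2 and 85.03 CPM in the proliferating cells and at 29.8 and 33.4 CPM in the cells with 0 UMIs (1.28 ± 0.12, adjusted p = 6.9e-11). The level of *Pfkp*, a phosphofructokinase, was 26.7 and 36.9 CPM against 14.7 and 15.7 CPM (1.09 ± 0.15). For *Tpi1*, triosephosphate isomerase, the proliferating cells held 454 and 579 CPM and the cells with 0 held 264 and 302 CPM, a log2 change of 0.86 ± 0.11. In that window *Slc16a3* was at 0.81, *Pfkp* at 1.06 and *Tpi1* at 0.43. *Hk2*, hexokinase 2, was at 37.4 and 23.6 CPM in the proliferating cells and at 65.9 and 46.4 CPM in the cells with 0 UMIs (−0.90 ± 0.12, adjusted p = 3.0e-07). Of 24 genes of cholesterol and lipid synthesis 6 rose, but only 1 did without replicate 2. *Sqle*, squalene epoxidase, was at 8.23 and 15.8 CPM against 3.41 and 3.71 CPM (1.79 ± 0.24, adjusted p = 1.8e-07, and 0.089 without replicate 2). *Tfrc*, the transferrin receptor, rose by 0.97 ± 0.20 on the log2 scale, and in the window it was at −0.15. The level of *Hsp90aa1*, an inducible chaperone, was 334 and 434 CPM against 176 and 176 CPM (1.12 ± 0.11). Few housekeeping genes passed: of 82 ribosomal protein genes 1 fell, *Rps27* (−0.70 ± 0.10), and none rose (median −0.18, or 0.02 when scaled to the plain sum of UMIs), of 78 nuclear genes of the respiratory chain 1 fell, *Ndufa6* (−0.74 ± 0.10), and of 13 mitochondrial ones none passed. Of 31 proteasome genes 2 rose, of 23 chaperones 1 rose and 1 fell, and of 19 immediate early genes 2 fell.

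Proliferating cells of slices at 3 weeks were chosen and compared in the same way, in 93 and 173 cells of 2 libraries with the same time in culture and no cells shared with the *in vitro* comparison. These slice cells were shallower, with medians of 7236 and 6892 UMIs against 20614 and 20670.5 *in vitro*. The same cut of 5 UMIs was therefore stricter in slices. The 6 genes summed to 1737 and 2816 plain CPM in the chosen slice cells, against 954 and 887 plain CPM in the *in vitro* proliferating cells. The part of this in the differences below was not tested. In slices 930 genes rose (8.29% of all tested) and 854 fell (7.62%). Of these, 688 rose in both, which is 53.4% of the *in vitro* rises and 74.0% of the slice rises, and 289 fell in both, which is 25.5% and 33.8%. A further 33 genes rose *in vitro* and fell in slices, and 12 did the reverse. The difference between the 2 changes was tested in the same fit: it was called higher *in vitro* for 390 genes (3.48% of all tested) and lower for 236 (2.1%). Slice 3 weeks replicate 1 carries another study number in the labels than the other libraries of this comparison, and without it 242 were higher and 256 lower. Without slice 3 weeks replicate 2 they were 169 and 167, without *in vitro* replicate 1 259 and 140, and without *in vitro* replicate 2 114 and 75. Without the library block 14 were higher and 4 lower. Among cells with 10000 to 20000 UMIs 98 were higher and 136 lower.

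**Figure D5:**
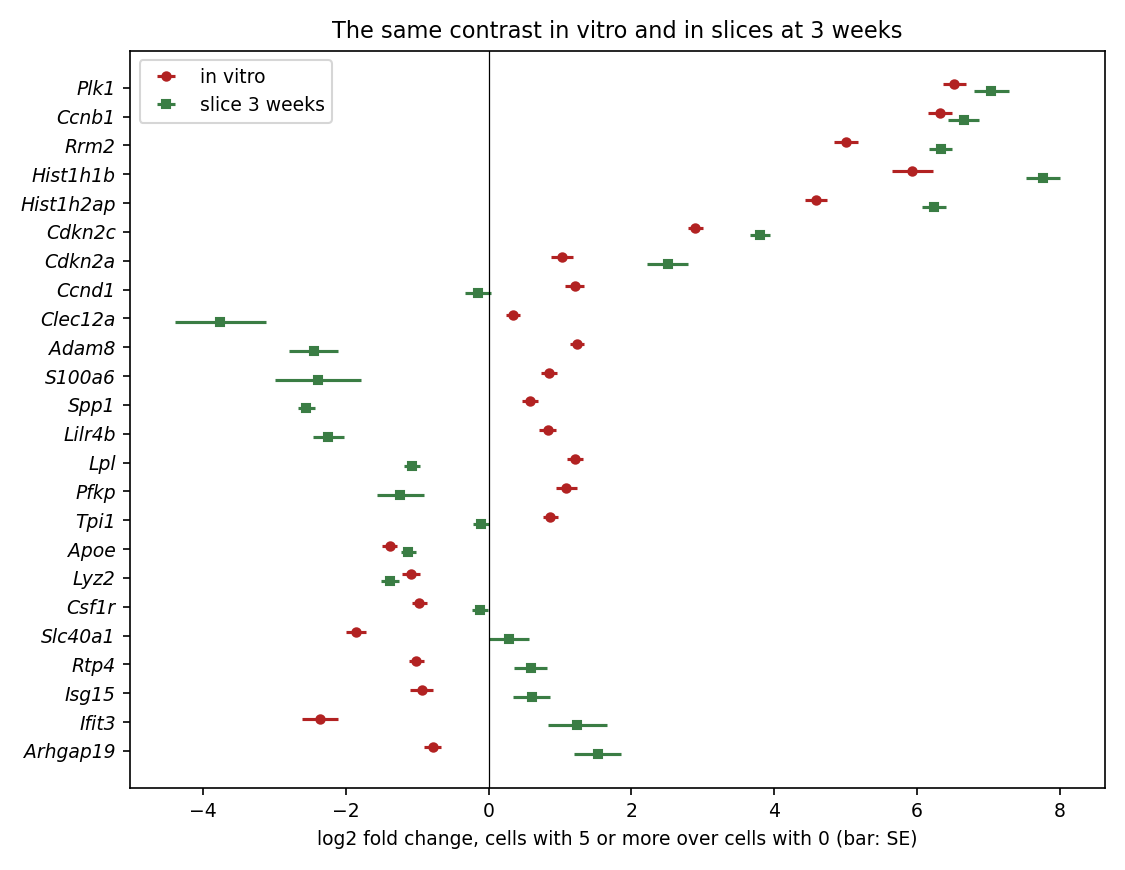
Log2 fold change of proliferating cells over cells with 0 UMIs of the 6 genes (x axis) for 24 genes (rows), *in vitro* (red circles) and in slices at 3 weeks (green squares), with SE as bars. *Plk1* and *Ccnb1* lie near each other in both, at 6.52 and 7.04 and at 6.32 and 6.65, while *Spp1*, at 0.58 and −2.55, and *Lilr4b*, at 0.83 and −2.25, lie on opposite sides of 0.

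Most genes of mitosis, DNA replication and histones did not pass the test of the difference. Of the replication and histone genes that passed it, all but 1 were raised less *in vitro* than in slices. The mitotic lists leaned the same way, with median differences of −0.53 (kinetochore), −0.34 (cyclins and kinases) and −0.27 (spindle motors). Of 24 condensin, cohesin and chromosome genes 8 were lower and 2 higher *in vitro* (median difference −0.54). *Plk1* had a log2 change of 6.52 ± 0.16 *in vitro* and of 7.04 ± 0.24 in slices, and the difference was −0.52 ± 0.40 (adjusted p = 0.53). *Ccnb1* had a log2 change of 6.32 ± 0.16 *in vitro* and of 6.65 ± 0.22 in slices, and the difference was −0.33 ± 0.33 (adjusted p = 0.66). A difference that did not pass does not show that the changes were equal. Of 50 replication genes 12 were lower and none higher *in vitro* (median difference −0.60, against 0.08 over all genes), with 6 to 17 lower when any of the 4 libraries was left out. *Rrm2* had a log2 change of 5.01 ± 0.16 *in vitro* and of 6.33 ± 0.16 in slices, and the difference was −1.32 ± 0.27 (adjusted p = 0.0014). *Hist1h2ap* had a log2 change of 4.58 ± 0.16 *in vitro* and of 6.24 ± 0.17 in slices, and the difference was −1.66 ± 0.25 (adjusted p = 1.6e-05). In slices *Hist1h2ap* was at 1106 CPM in proliferating cells of replicate 1 and at 225 CPM in replicate 2, against 12.4 and 3.59 CPM in the cells with 0. Of 39 histone genes 6 were lower and 1 higher, but 2 to 4 were lower when any of the 4 libraries was left out. Of 41 kinetochore genes 9 were lower, but 3 without slice 3 weeks replicate 2 and 3 without *in vitro* replicate 2, and of 31 cyclins and kinases 6 were lower and 1 higher, but none was lower without slice 3 weeks replicate 2 and 1 without *in vitro* replicate 2. *Cdkn2c* had a log2 change of 2.89 ± 0.11 *in vitro* and of 3.80 ± 0.14 in slices, and the difference was −0.91 ± 0.17 (adjusted p = 4.7e-04). *Cdkn2a* had a log2 change of 1.03 ± 0.15 *in vitro* and of 2.51 ± 0.29 in slices, and the difference was −1.48 ± 0.31 (adjusted p = 0.0019). *Ccnd1* had a log2 change of 1.20 ± 0.13 *in vitro* and of −0.15 ± 0.18 in slices, and the difference was 1.36 ± 0.22 (adjusted p = 5.4e-05). The difference of *Ccnd1* was −0.04 among cells with 10000 to 20000 UMIs.

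Among genes whose mean log2 CPM in the fit reached 5, the 5 largest positive differences were those of *Clec12a*, *Adam8*, *S100a6*, *Spp1* and *Lilr4b*. *Spp1* had a log2 change of 0.58 ± 0.11 *in vitro* and of −2.55 ± 0.12 in slices, and the difference was 3.13 ± 0.17 (adjusted p = 1.1e-15). In slices it was at 789 and 252 CPM in proliferating cells and at 4866 and 1402 CPM in cells with 0. *Adam8*, a metalloprotease of myeloid cells, had a log2 change of 1.24 ± 0.10 *in vitro* and of −2.45 ± 0.34 in slices, and the difference was 3.69 ± 0.33 (adjusted p = 5.8e-10). *In vitro* *Adam8* was at 238 and 335 CPM in proliferating cells against 93.1 and 151 CPM, and in slices at 4.78 and 4.70 CPM against 38.3 and 19.1 CPM. *Lilr4b*, an inhibitory myeloid receptor, had a log2 change of 0.83 ± 0.12 *in vitro* and of −2.25 ± 0.21 in slices, and the difference was 3.07 ± 0.24 (adjusted p = 3.6e-11). In slices *Lilr4b* was at 15.5 and 23.5 CPM in proliferating cells and at 95.8 and 98.2 CPM in cells with 0. *Clec12a*, an inhibitory lectin receptor, and *S100a6*, a calcium-binding protein, are less certain, as their proliferating slice cells held very few UMIs (2.39 and 0 CPM for *Clec12a*, 1.19 and 2.01 CPM for *S100a6*), so the size of their fitted differences, 4.10 ± 0.63 and 3.23 ± 0.56, is uncertain. Among cells with 10000 to 20000 UMIs the *in vitro* change of *Spp1* turned to −0.46 (adjusted p = 2.9e-04), and those of *Adam8* and *S100a6* were 0.33 (0.061) and 0.21 (0.35). The differences of *Spp1* (2.23), *Adam8* (3.10) and *Lilr4b* (2.74) still passed there, and that of *S100a6* did not (1.70, adjusted p = 0.38). Of 24 disease-associated genes 9 were higher and none lower *in vitro* (median difference 0.41). *Lpl* had a log2 change of 1.21 ± 0.11 *in vitro* and of −1.08 ± 0.11 in slices, and the difference was 2.28 ± 0.16 (adjusted p = 1.2e-12). Among cells with 10000 to 20000 UMIs the difference of *Lpl* was smaller, at 1.11, and still passed. Of 24 glycolysis genes 13 were higher and none lower (0.72), against 5 among cells with 10000 to 20000 UMIs. *Tpi1* had a log2 change of 0.86 ± 0.11 *in vitro* and of −0.11 ± 0.11 in slices, and the difference was 0.97 ± 0.16 (adjusted p = 5.1e-05). *Pfkp* had a log2 change of 1.09 ± 0.15 *in vitro* and of −1.24 ± 0.33 in slices, and the difference was 2.32 ± 0.34 (adjusted p = 1.4e-05).

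Other genes rose less or fell more *in vitro* than in slices. *Slc40a1* had a log2 change of −1.86 ± 0.14 *in vitro* and of 0.28 ± 0.27 in slices, and the difference was −2.14 ± 0.34 (adjusted p = 3.4e-05). *Csf1r* had a log2 change of −0.97 ± 0.11 *in vitro* and of −0.12 ± 0.11 in slices, and the difference was −0.85 ± 0.15 (adjusted p = 2.1e-04). *Arhgap19*, a GTPase-activating protein, had a log2 change of −0.79 ± 0.12 *in vitro* and of 1.53 ± 0.33 in slices, and the difference was −2.31 ± 0.37 (adjusted p = 3.9e-05). Without slice 3 weeks replicate 2 the adjusted p of *Arhgap19* was 0.27. Of 27 interferon response genes 10 were lower *in vitro* and none higher (median difference −0.84), but only 1 was lower without slice 3 weeks replicate 2. *Rtp4*, an interferon-induced chaperone of receptors, had a log2 change of −1.01 ± 0.11 *in vitro* and of 0.59 ± 0.23 in slices, and the difference was −1.60 ± 0.27 (adjusted p = 7.6e-05). *Isg15* had a log2 change of −0.94 ± 0.16 *in vitro* and of 0.60 ± 0.26 in slices, and the difference was −1.54 ± 0.31 (adjusted p = 0.0013). Without that library the difference of *Isg15* was −0.43 (adjusted p = 0.81) and that of *Ifit3* was 0.81 (0.92), while *Rtp4* kept its difference (−1.51, adjusted p = 0.0049). In that library *Ifit3* was at 34.2 CPM in proliferating cells against 8.43 CPM, while replicate 1 had 1.19 against 11.6 CPM. Of 24 homeostatic genes 3 were lower *in vitro*, and 7 without slice 3 weeks replicate 2. Neutrophil markers were at 3.78 and 1.33 CPM in the slice cells with 0, against 1.56 and 2.34 CPM in those *in vitro*, and their part in these differences was not tested.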

How the data were processed

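The authors deposited UMI counts per gene and cell barcode for each library, made with Cell Ranger 1.3.0 on mm10 as given in the submitters' processing notes, so the values are whole counts with no normalization. Kept cells had at most 5% mitochondrial UMIs, at least 400 genes and at most 30000 UMIs, limits taken from the study. No doublet caller was run. The kept *in vitro* cells held 33957132 and 39689540 UMIs. Any rows of a file that carried an identical symbol were summed under it.

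Counts were summed per library and class, for the 6 libraries with at least 20 cells in a class. Genes were filtered at a minimum count of 10 with filterByExpr, scaled by TMM and tested with edgeR 4.0.16 (R 4.3.3) by its quasi-likelihood test, with the library as replicate block and a class effect for each group (biological coefficient of variation 6.89%, 3 residual degrees of freedom). The difference between *in vitro* and slice 3 weeks is a contrast of the same fit. The SE of a change is its size over the square root of its F statistic. A call needed an adjusted p under 0.05 and a change of over 1.5-fold. Both classes come from the same library, which pairs them. Their deviations from the group means correlated at r = 0.37 over 9141 genes. Alternatives were DESeq2 1.42.0, other scalings, filters, thresholds and depths, no block, and leaving out each library.

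Shares have 95% exact binomial intervals. Thinning drew 5000 UMIs per cell at random without replacement. Promoters were RefSeq entries of GRCm38.p6. Genes were named by rule: from each list up to 4 genes with the largest called change and up to 2 of the most abundant not called, any gene of the G1 list, the 8 largest rises and falls and the 5 largest differences each way among genes whose mean log2 CPM in the fit reached 5, and the genes with a printed promoter. Genes given as markers at 0, genes given as highest of a marker list, and *Ccr2* were named after their values were seen. Some genes that the rule names are not reported here. The members and gene lists were chosen with earlier results of these data known.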

Additional observations from a re-analysis of the deposited data

Results flagged for a closer look

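The change of proliferating over other cells differed between *in vitro* and slice 3 weeks microglia for these genes, by the test of the difference in edgeR's quasi-likelihood fit. Values are differences in log2 fold change, *in vitro* minus slice 3 weeks.

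Among macrophage and lipid genes the difference was 4.10 for *Clec12a*, 3.69 for *Adam8*, 3.23 for *S100a6*, 3.13 for *Spp1*, 3.07 for *Lilr4b*, 2.30 for *Ms4a7* and 2.28 for *Lpl*. It was −2.14 for *Slc40a1*, −0.85 for *Csf1r*, −0.85 for *Aif1*, −0.84 for *Gpr34* and −0.72 for *Apoc1*. The values of *Clec12a* and *S100a6* rest on few UMIs in the proliferating slice cells.

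Among metabolic genes and the iron uptake receptor it was 2.32 for *Pfkp*, 2.29 for *Tfrc*, 1.55 for *Slc16a3* and 0.97 for *Tpi1*.

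Among cell cycle genes it was 1.36 for *Ccnd1* and 0.67 for *Cdk6*, and on the other side −1.83 for *Hist1h1b*, −1.66 for *Hist1h2ap*, −1.48 for *Cdkn2a*, −1.41 for *Ube2c*, −1.32 for *Rrm2*, −1.18 for *2810417H13Rik*, −0.91 for *Cdkn2c*, −0.91 for *Slbp* and −0.74 for *E2f1*.

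Among interferon response genes it was −3.60 for *Ifit3*, −1.60 for *Rtp4* and −1.54 for *Isg15*. Without slice 3 weeks replicate 2 that of *Ifit3* turned to 0.81 and was not called. It was −2.31 for *Arhgap19* and −1.11 for *Tmcc3*, and 3.14 for *Cspg4*.

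Several of these differences turned or no longer passed when 1 slice library was left out or when only cells of like depth were used. Such fits also held fewer cells or libraries, with 24 and 35 proliferating slice cells among those with 10000 to 20000 UMIs. A lost call need not mean a smaller difference. Without slice 3 weeks replicate 2, those of *Hist1h1b* (−0.40), *2810417H13Rik* (−0.28), *E2f1* (−0.69), *Tfrc* (2.18), *Apoc1* (−0.62), *Cdk6* (0.89), *Arhgap19* (−1.62) and *Isg15* (−0.43) no longer passed, and without slice 3 weeks replicate 1 that of *Cdk6* (0.39) did not. Among cells with 10000 to 20000 UMIs those of *Ccnd1* (−0.04), *Cdk6* (−0.39) and *Tfrc* (−0.09) turned. Those of *S100a6* (1.70), *Cdkn2c* (−0.67), *Cdkn2a* (−1.35), *Hist1h1b* (−2.64) and *Apoc1* (−0.72) kept their direction there but did not pass. Those of *Spp1* (2.23) and *Lpl* (1.11) were smaller there and still passed. With no replicate block, those of *Adam8*, *Lilr4b*, *Lpl* and *Ms4a7* passed and the others listed here did not.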

How the results depend on the processing

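The count of genes that rose in proliferating *in vitro* cells was 1987 when scaled to library size alone and 6132 with no scaling for depth, and ran from 703 to 1088 with either *in vitro* replicate left out. The count that fell was 614 with library size alone, 139 with no scaling and 560 with no replicate block, and 692 to 883 with a replicate left out. Among the differences from slice 3 weeks, higher and lower counts were 136 and 99 with DESeq2, 14 and 4 with no replicate block, and 98 and 136 among cells with 10000 to 20000 UMIs. Against all cells under 5 UMIs 147 were lower. With no scaling for depth, a setting chosen for the difference after seeing the data, 650 were higher. Leaving out 1 of the 4 libraries gave 114 to 259 higher and 75 to 256 lower. The blocked pairing is by library, so the fit with no replicate block compares classes across libraries, and of the lists, 13 histone genes still rose and 5 interferon and 3 homeostatic genes fell *in vitro* under it. The mean share of proliferating *in vitro* cells was 3.72% when cells were thinned to 5000 UMIs. Among cells with 10000 to 20000 UMIs the called changes of *Cdk6* (−0.19), *Tfrc* (−0.15), *Idi1* (−0.033), *Lpl* (−0.022) and *Il1b* (0.22) reversed, 181 named genes stayed on the same side of the threshold, 19 no longer passed, 7 newly passed and the rest were not tested there. Some genes not called in either fit also changed sign, among them *Spp1* (0.58 to −0.46), *Aldoa* (0.27 to −0.29) and *Btg2* (−0.39 to 0.43). The cause of these shifts was not tested.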
